A study of Mus musculus with 10 samples.

Results

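The effect of losing Atg16l1 was compared between both dendritic cell subsets of the mouse spleen, to find the genes whose change with genotype was not the same in each. All 10 of the 10 libraries of the series entered the comparison, each prepared from total RNA of sorted spleen dendritic cells of C57BL/6 mice aged 16 weeks. Libraries labelled CD11b came from 2 Atg16l1 -/- mice (KO) and 3 Atg16l1 +/+ mice (wild type, WT), and libraries labelled CD8 likewise from 2 KO and 3 WT mice. Per the labels' protocols, each spleen came from a single mouse, its CD11c-positive cells were enriched magnetically, and cells with high CD11c and MHC class II were sorted by surface CD11b and CD8. Whether the libraries of both labels came from the same mice is not given. Which part of Atg16l1 was deleted, in which cells, and whether the mice carried a Cre are not given in the labels, and the series title places the mice in a model of atherosclerosis without giving a diet or a second allele.

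For every gene, the log2 fold change of KO over WT was taken at the label CD11b and at the label CD8, and the first minus the second is called the difference here. A negative difference means that the gene went lower, or rose less, with KO at the label CD11b than at the label CD8. The value of a gene in a library is given as CPM, its count scaled to the library's gene counts after TMM normalization. A gene was called where the adjusted p of edgeR's quasi-likelihood test was under 0.05.

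The libraries held 9467704 to 13768884 gene counts each, and 14528 genes were tested. Atg16l1 itself had 1.73 to 3.31 CPM across KO libraries, against 13.3 to 32.7 CPM across WT libraries, and its difference was −0.49 ± 0.55 (SE; edgeR adjusted p = 0.963). Subset labels ran opposite to the transcripts of the proteins they name. Cd8a, for CD8 alpha, had 448 to 578 CPM in libraries labelled CD11b and 0.905 to 5.87 CPM in those labelled CD8. The CD11b gene, Itgam, had 1.58 to 2.73 CPM in libraries labelled CD11b and 76.1 to 104 CPM in those labelled CD8. The labels were kept as deposited, so the label CD11b here means libraries rich in Cd8a and the label CD8 means libraries rich in Itgam. Exchanging the labels would turn the sign of every difference and leave its size and test as they are.

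Atg16l1 is the scaffold that brings the LC3 conjugation enzymes to a membrane, both in autophagy and on the vacuoles of engulfed particles and microbes. Conventional dendritic cells of the spleen fall into a CD8-positive subset (cDC1), known for cross-presenting antigen of dead cells and microbes to CD8 T cells, and a CD11b-positive subset (cDC2), known for presenting antigen to CD4 T cells. Guanylate-binding proteins, the family of 2 of the genes below, are GTPases induced by interferon that gather on pathogen vacuoles and bacteria, and in mouse cells the LC3 conjugation machinery is known to be needed for placing them there.

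The difference was called for 3 of 14528 genes (0.0206%), Gbp2, Gbp3 and Plcb4. All 3 were negative. Gbp2 and Gbp3 fell with KO at the label CD11b, and at the label CD8 their changes did not pass the test. Plcb4 rose with KO at the label CD8, and at the label CD11b it was higher in KO by a smaller amount that did not pass the test. In comparison, the fold change of KO over WT itself was called for 21 genes (0.145%) at the label CD11b and for 21 genes (0.145%) at the label CD8, and 8 genes were called at both. DESeq2 called 12 differences, 6 positive and 6 negative, and edgeR without the filter on low counts called 41, 16 positive and 25 negative. The 3 genes were among the calls of each of these fits, and remained called with any 1 library left out. Because bulk RNA was measured, fewer cells of one kind and less RNA of a gene per cell cannot be told apart in any of these values.

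**Figure D1:**
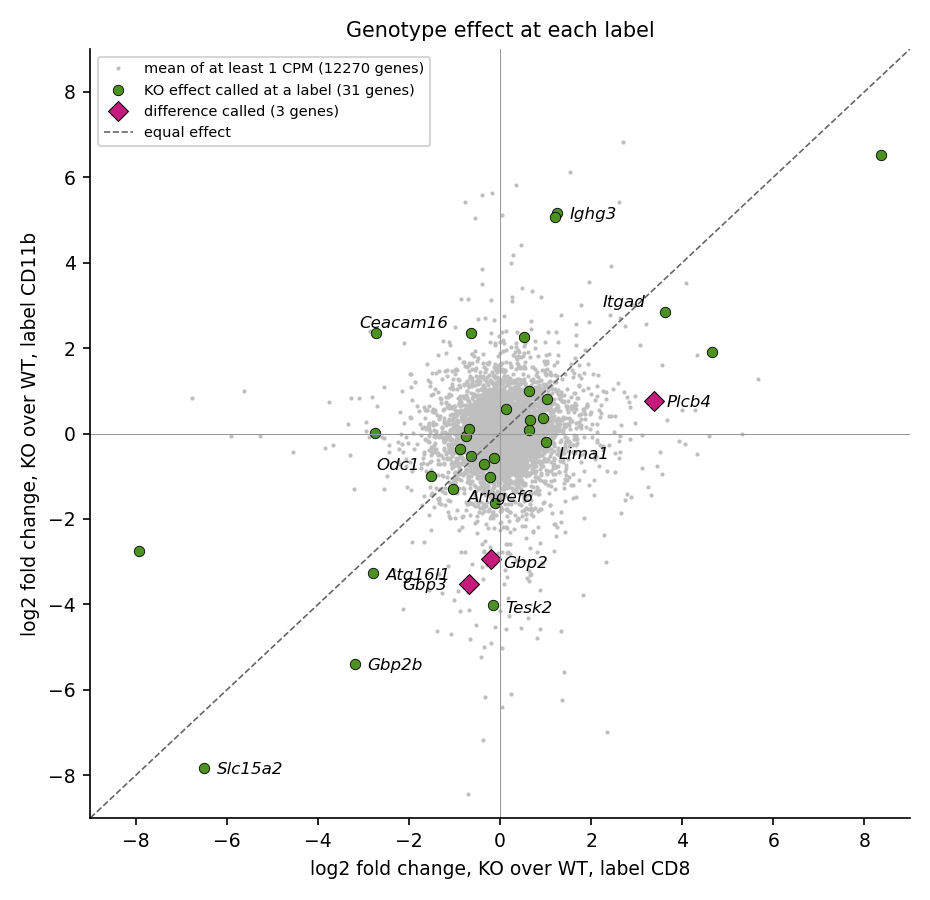
Log2 fold change of KO over WT at the label CD8 (x axis) and at the label CD11b (y axis) for the 12270 genes with a mean of at least 1 CPM; diamonds are the 3 genes whose difference was called, circles the other genes called at a label, and the dashed line marks equal effects. Gbp2 and Gbp3 lie below the line at −0.21 and −0.68 on the x axis, Plcb4 lies below it at 3.39 on the x axis, and Slc15a2, Gbp2b and Atg16l1 are low on both axes.

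The size of difference that could be seen depended on the level of a gene. The median half-width of the 95% interval of the difference was 0.33 on the log2 scale for genes at 100 CPM and over, 0.62 for genes at 10 to 100 CPM, 1.88 for genes at 1 to 10 CPM and 5.01 for genes under 1 CPM. Differences of less than these sizes could not be told from 0 for many genes of each class, even before adjustment. The intervals are not adjusted for the number of genes tested, so a call took a larger difference. Tent5c, with a mean of 399 CPM and a difference of −0.60, was not called in the main setting (edgeR adjusted p = 0.486).

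Gbp2 and Gbp3 lie on chromosome 3 with Gbp2b between them, all on the plus strand. Gbp2 (ENSMUSG00000028270) spans 142620602 to 142638008 and Gbp3 (ENSMUSG00000028268) spans 142560026 to 142573209 in GRCm38. The promoters of the 3 genes whose difference was called are shown because both Gbp genes fell at the label CD11b while Plcb4 rose at the label CD8. Each runs from 250 bases before to 50 bases after the start site in the RefSeq entry for GRCm38.p6, on the plus strand, at chr3:142620413-142620712 for Gbp2, chr3:142559794-142560093 for Gbp3 and chr2:135659297-135659596 for Plcb4. Capitals mark matches to an interferon-stimulated response element (ISRE, searched on both strands as GAAA, any 2 bases, GAAA). For Gbp3 and Plcb4, which have 2 RefSeq promoter entries each, the entry nearest to the annotated gene start is shown.
Gbp2: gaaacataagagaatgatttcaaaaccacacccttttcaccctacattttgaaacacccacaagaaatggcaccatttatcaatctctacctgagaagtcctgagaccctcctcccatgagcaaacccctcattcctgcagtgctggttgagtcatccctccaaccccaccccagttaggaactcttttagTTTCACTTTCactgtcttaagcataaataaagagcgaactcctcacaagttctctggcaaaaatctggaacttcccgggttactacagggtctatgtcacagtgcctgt
Gbp3: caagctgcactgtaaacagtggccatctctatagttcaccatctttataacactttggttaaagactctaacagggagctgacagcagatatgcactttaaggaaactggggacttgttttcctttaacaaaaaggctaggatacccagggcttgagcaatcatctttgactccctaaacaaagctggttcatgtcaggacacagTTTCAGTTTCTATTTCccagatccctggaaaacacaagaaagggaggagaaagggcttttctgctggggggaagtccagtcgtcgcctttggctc
Plcb4: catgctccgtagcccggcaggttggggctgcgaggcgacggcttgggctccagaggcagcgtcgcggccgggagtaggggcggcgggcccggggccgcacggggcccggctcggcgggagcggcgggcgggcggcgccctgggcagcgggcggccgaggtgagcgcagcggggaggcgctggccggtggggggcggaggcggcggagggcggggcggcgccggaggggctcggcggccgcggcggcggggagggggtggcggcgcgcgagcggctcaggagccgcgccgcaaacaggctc
The Gbp2 promoter held 1 match, at −59 to −50 from the start site, and the Gbp3 promoter held 2 that overlap, at −45 to −36 and −39 to −30, each read on the opposite strand. The other promoter entry of Gbp3 held 0 matches. The Plcb4 window, 84% G and C, held 0. Among 32851 promoters of this length, 1131 (3.44%) held such a match. A gamma-activated site (GAS, searched as TTC, any 3 bases, GAA, which reads the same on both strands) was held by 2726 promoters (8.30%) and by none of these 3 windows. Gbp2b, Gbp5 and Gbp7 each had an ISRE match in a promoter too, and Gbp5 and Gbp7 a GAS match. A match of letters is not a measured binding site.

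Gbp2 had 9.08 and 12.7 CPM in CD11b KO, 69.9, 92.8 and 91.4 CPM in CD11b WT, 34.0 and 55.6 CPM in CD8 KO, and 49.8, 59.4 and 45.6 CPM in CD8 WT. Both CD11b KO libraries were lower than every other library, and the KO and WT libraries overlapped at the label CD8. The log2 fold change was −2.95 ± 0.23 (SE) at the label CD11b (edgeR adjusted p = 3.41e-08) and −0.21 ± 0.20 at the label CD8 (0.966). Their difference was −2.74 ± 0.29 (SE; 95% interval −3.35 to −2.13; edgeR adjusted p = 2.73e-05). In WT, Gbp2 was higher at the label CD11b than at the label CD8, by 0.71 ± 0.17 on the log2 scale, and in KO the order was turned round, with −2.03 ± 0.24.

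Gbp3 had 6.36 and 9.92 CPM in CD11b KO, 74.5, 108 and 101 CPM in CD11b WT, 33.8 and 41.7 CPM in CD8 KO, and 43.7, 65.1 and 72.6 CPM in CD8 WT. The groups did not overlap at either label, but the gap was wide at the label CD11b and narrow at the label CD8. The log2 fold change was −3.52 ± 0.25 (SE) at the label CD11b (edgeR adjusted p = 6.25e-09) and −0.68 ± 0.21 at the label CD8 (0.365), and the difference was −2.84 ± 0.31 (95% interval −3.48 to −2.20; edgeR adjusted p = 2.73e-05). As with Gbp2, the label CD11b was above the label CD8 in WT, by 0.64 ± 0.18, and below it in KO, by −2.20 ± 0.25. At the label CD8 the change of Gbp3 was called by edgeR without the filter on low counts (adjusted p = 0.0138). It was called in no other setting that gave the difference and the effect at each label. The fit of the libraries labelled CD8 alone was not read for this gene.

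**Figure D2:**
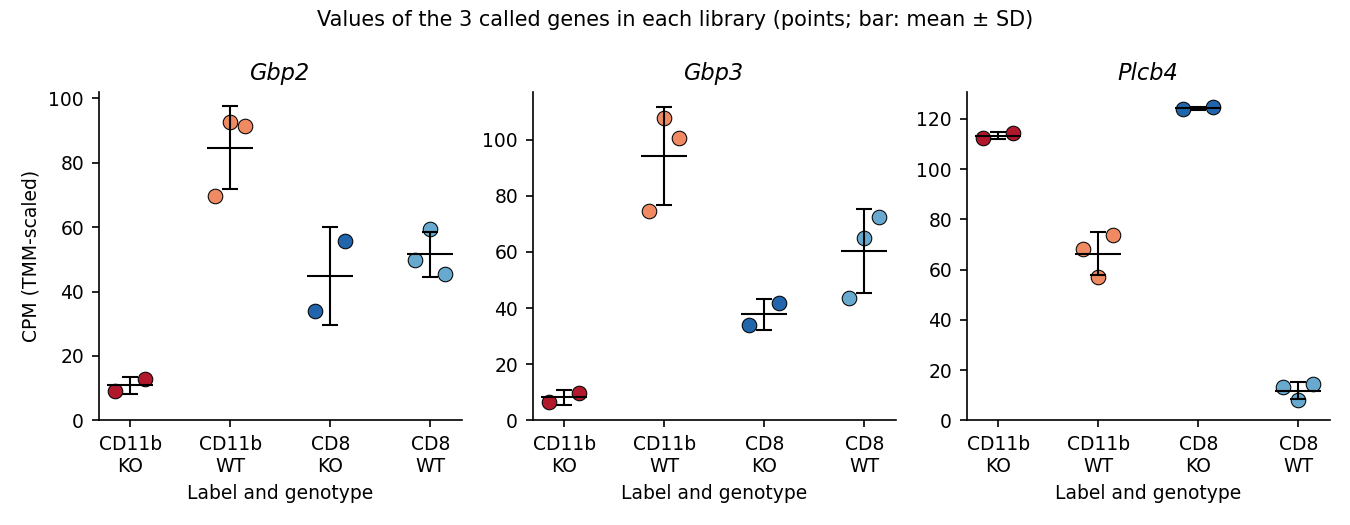
CPM of Gbp2, Gbp3 and Plcb4 in each library (points), with the mean and SD of each group, for CD11b KO (n = 2), CD11b WT (n = 3), CD8 KO (n = 2) and CD8 WT (n = 3). The CD11b KO libraries stand lowest for Gbp2 and Gbp3, and for Plcb4 the CD8 WT libraries stand lowest, at 8.06 to 14.3 CPM.

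Of 11 guanylate-binding protein genes listed, 8 passed the filter on low counts and 2 of these were called, both negative. Gbp6, Gbp10 and Gbp11 did not pass the filter. Over the 8 genes the median difference was −0.81, against −0.02 over all genes tested, and 7 of 8 were negative, against 51.6% of all genes. The median of the 8 ranged from −0.98 to −0.53 with 1 library left out, and the value nearest to 0 came without CD11b WT 2. At an unadjusted p under 0.05, 4 of the 8 were negative, where 442 of all genes tested (3.04%) were negative and 351 (2.42%) positive. These 4 were Gbp2, Gbp3, Gbp2b and Gbp5. Since the called genes Gbp2 and Gbp3 are counted in each of these values, the values describe the family and are no test.

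Gbp2b, the gene between Gbp3 and Gbp2, fell at both labels and its difference did not pass the test in most settings. It had 5.25 and 2.42 CPM in CD11b KO, 105, 193 and 176 CPM in CD11b WT, 1.24 and 0.435 CPM in CD8 KO, and 4.64, 11.6 and 7.00 CPM in CD8 WT. KO libraries lay below WT libraries at both labels, and at the label CD8 the gene was low in WT already. The log2 fold change was −5.39 ± 0.37 (SE) at the label CD11b (edgeR adjusted p = 5.88e-09) and −3.19 ± 0.48 at the label CD8 (0.00205). The difference of −2.20 ± 0.72 had a 95% interval of −3.69 to −0.70 and an edgeR adjusted p of 0.829. The difference of Gbp2b ran from −2.83 to −1.26 with 1 library left out (−1.26 without CD8 KO 1), and it was called by edgeR without the filter on low counts (−2.21, adjusted p = 0.000577).

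In the same cluster, Gbp5 had 19.8 and 19.2 CPM in CD11b KO, 23.4, 40.7 and 20.4 CPM in CD11b WT, 33.7 and 30.8 CPM in CD8 KO, and 21.4 to 25.3 CPM in CD8 WT. KO was the lower group at the label CD11b and the higher one at the label CD8, without overlap at either. Its difference of −1.0 ± 0.34 (SE) did not pass the test (edgeR adjusted p = 0.83), nor did its fold change at either label. Gbp7 had a difference of −0.27 ± 0.48. The chromosome 5 genes Gbp4, Gbp9 and Gbp8 had differences of −0.62 ± 0.32, −0.29 ± 0.20 and 0.22 ± 0.29. Their annotated spans overlap on the same strand, so their values rest on the reads that only 1 of them could take. Exact copies in annotated transcripts of other genes were few for both called Gbp genes. They took in 2.07% of the 50-base windows of the longest Gbp2 transcript and 4.79% of those of Gbp3. Copies with mismatches, or outside annotated transcripts, were not searched.

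**Figure D3:**
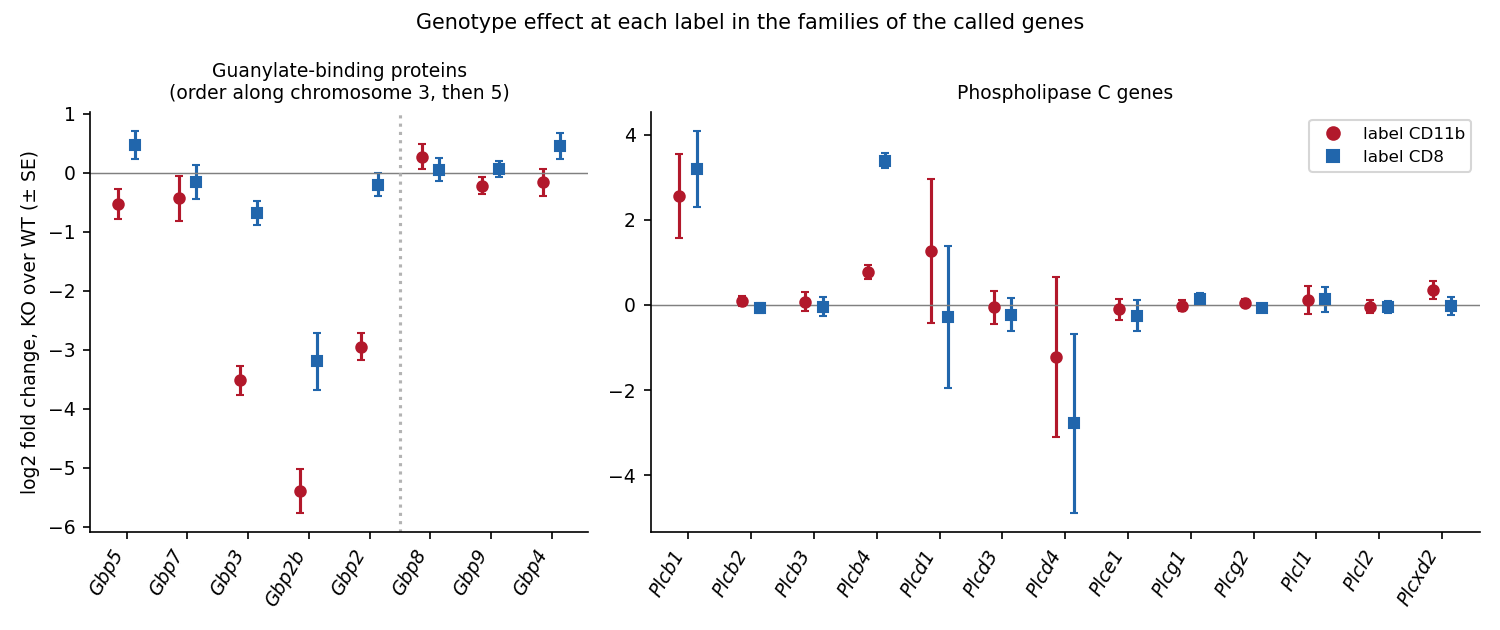
Log2 fold change of KO over WT (± SE) at the label CD11b (circles) and the label CD8 (squares) for the guanylate-binding proteins tested, in their order along chromosome 3 and then 5, and for the phospholipase C genes tested. Gbp3 and Gbp2, the 2 Gbp genes with a called difference, have differences of −2.84 and −2.74. Gbp2b is low at both labels, with a difference of −2.20 that was not called. Plcb4 is the phospholipase C gene with a called difference, at 0.77 and 3.39.

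Among the other interferon lists no difference was called. Of 30 type I interferon-stimulated genes, 0 differences were called by edgeR (1 negative and 1 positive at an unadjusted p under 0.05), and the median difference was −0.06, or 0.16 without CD11b WT 3. Of 18 genes of the interferon-gamma pathway, 0 were called (2 negative at an unadjusted p under 0.05), and their median was −0.10. The smallest p on that list belonged to Cxcl9, a chemokine that draws T cells, with a difference of −0.69 ± 0.23 (SE; edgeR adjusted p = 0.829). Nlrc5, the transactivator of MHC class I genes, had −0.42 ± 0.15. Of 8 immunity-related GTPases, partners of the guanylate-binding proteins on vacuoles, 0 were called (0 at an unadjusted p under 0.05), and their median was 0.09, which ran from −0.51 (without CD8 WT 3) to 0.26 (without CD8 KO 2) with 1 library left out. Of 9 interferon regulatory factors, 0 were called (0 at an unadjusted p under 0.05). Irf4, the factor of cDC2, rose at the label CD8, with a log2 fold change of 0.67 ± 0.13 (edgeR adjusted p = 0.0269), and had 0.31 ± 0.14 at the label CD11b, a difference of −0.36 ± 0.19 that did not pass (0.937).

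Plcb4 (ENSMUSG00000039943, chromosome 2, 135659011 to 136014593, plus strand) had the smallest p of all differences. It encodes phospholipase C beta 4, which cleaves a membrane phosphoinositide downstream of receptors coupled to Gq proteins. Plcb4 had 112 and 114 CPM in CD11b KO, 68.3, 57.2 and 73.7 CPM in CD11b WT, 124 and 125 CPM in CD8 KO, and 13.3, 8.06 and 14.3 CPM in CD8 WT. KO libraries lay above WT libraries at both labels, and the 4 KO libraries were close to each other whatever their label. The WT level set the labels apart, with 66.4 ± 8.41 CPM at the label CD11b and 11.9 ± 3.35 CPM at the label CD8 (SD, n = 3 each).

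At the label CD11b the log2 fold change of Plcb4 was 0.77 ± 0.16 (SE; edgeR adjusted p = 0.053), and at the label CD8 it was 3.39 ± 0.18 (2.35e-11). The difference was −2.62 ± 0.24 (95% interval −3.12 to −2.11; edgeR adjusted p = 4.72e-06). Between the labels, Plcb4 was higher by 2.49 ± 0.17 on the log2 scale at the label CD11b than at the label CD8 in WT, and by −0.13 ± 0.18 in KO. On the linear scale, KO exceeded WT by 47.0 CPM at the label CD11b and by 112 CPM at the label CD8, so the order of the effects was the same on both scales. The change at the label CD11b was just outside the threshold. It passed with RLE size factors (edgeR adjusted p = 0.0446), no filter on low counts (0.000296), limma-voom (0.0119) and DESeq2 (0.00536), and without CD8 WT 2 (0.0133) or CD8 WT 3 (0.0451). It did not pass with unstranded counts (0.0648) or without any of the other 8 libraries, with the largest values without CD11b KO 1 (0.330) and CD11b KO 2 (0.267).

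Of 15 phospholipase C genes listed, 13 passed the filter and Plcb4 was the 1 called, with a median difference of 0.13 over the 13. Plch1 and Plch2 did not pass the filter. Plcb1, the beta isoform next to Plcb4 on chromosome 2, had 2.52 and 1.00 CPM in CD11b KO, 0.835, 0 and 0 CPM in CD11b WT, 9.72 and 8.36 CPM in CD8 KO, and 0.864, 0.543 and 1.51 CPM in CD8 WT. The KO libraries again lay above WT at both labels, most clearly at the label CD8, but neither fold change passed the test, and the difference was −0.64 ± 1.43 (SE; edgeR adjusted p = 0.998). Its sign turned in 3 of the settings tried. Plcb2, another beta isoform, and Plcg2, the gamma isoform of immune receptor signalling, had differences of 0.16 ± 0.17 and 0.13 ± 0.13. Of 22 genes of Gq signalling and calcium release, 0 differences were called (1 negative and 1 positive at an unadjusted p under 0.05), and the median was −0.02. Rgs1, which shortens Gq and Gi signals, had −0.41 ± 0.17 and Rasgrp4, an exchange factor driven by diacylglycerol, had 0.48 ± 0.19.

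Nearest to the threshold among the negative differences that missed it were Apoe and Lima1, both with an edgeR adjusted p of 0.0523. Apoe encodes apolipoprotein E, the carrier of cholesterol leaving macrophages and dendritic cells. It had 128 and 138 CPM in CD11b KO, 194, 192 and 151 CPM in CD11b WT, 499 and 528 CPM in CD8 KO, and 407, 341 and 284 CPM in CD8 WT. KO lay below WT at the label CD11b and above WT at the label CD8, without overlap at either. The log2 fold changes of −0.42 ± 0.13 and 0.58 ± 0.13 (SE) did not pass the test at the label CD11b or the label CD8 (edgeR adjusted p = 0.491 and 0.078), and the difference was −1.0 ± 0.18. The difference of Apoe passed in 9 of 22 settings, DESeq2 and limma-voom among them.

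Apoe is also made by splenic macrophages, and their markers were read beside it. The summed level of 16 red pulp macrophage markers was 348 to 367 CPM in CD11b KO, 318 to 373 CPM in CD11b WT, 579 to 609 CPM in CD8 KO and 391 to 506 CPM in CD8 WT. It was thus higher in KO at the label CD8, as Apoe was, and overlapped at the label CD11b. By marker, C1qa, C1qb and C1qc were higher in CD8 KO than in CD8 WT without overlap. Spic overlapped, with 16.8 and 16.4 CPM in CD8 KO against 8.52 to 16.7 CPM in CD8 WT. Of the 16, 0 differences were called and 2 were negative at an unadjusted p under 0.05. These were the complement gene C1qa at −1.27 ± 0.46 and the haem oxygenase gene Hmox1 at −0.57 ± 0.22 (SE; edgeR adjusted p = 0.859 and 0.866). The part of such cells in the value of Apoe was not tested.

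Lima1, which encodes an actin-bundling protein also known as EPLIN, had 116 and 105 CPM in CD11b KO, 115, 142 and 124 CPM in CD11b WT, 41.7 and 36.2 CPM in CD8 KO, and 21.6, 21.5 and 14.6 CPM in CD8 WT. KO and WT overlapped at the label CD11b, and KO was higher at the label CD8 without overlap. Its log2 fold change was −0.20 ± 0.15 (SE) at the label CD11b (edgeR adjusted p = 0.882) and 1.02 ± 0.16 at the label CD8 (0.00325), and the difference was −1.22 ± 0.22. Across settings, the difference of Lima1 passed in 8 of 22.

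The next negative genes by p were less certain. Tent5c, which encodes a poly(A) polymerase that lengthens messenger tails, had a difference of −0.60 ± 0.14 (SE), with 467 ± 14.8 CPM in CD11b KO, 530 ± 6.99 CPM in CD11b WT, 346 ± 43.0 CPM in CD8 KO and 259 ± 26.3 CPM in CD8 WT (SD; n = 2 for KO, n = 3 for WT; edgeR adjusted p = 0.486). The difference of Tent5c passed in 3 of 22 settings, DESeq2 among them (adjusted p = 0.049). Snn, which encodes stannin, had −1.41 ± 0.35 (edgeR adjusted p = 0.509), with 55.8 CPM in CD8 KO 2 against 31.7 CPM in CD8 KO 1. The difference of Snn passed in 2 of 22 settings. Tesk2, a kinase acting on cofilin, fell at the label CD11b to 0.101 and 0.250 CPM in KO, against 3.34, 3.47 and 2.42 CPM in WT. Under the label CD8 it had 3.79 and 4.01 CPM in KO, against 4.54, 4.98 and 3.60 CPM in WT. KO and WT did not overlap at the label CD11b and overlapped at the label CD8, and the difference of −3.85 ± 0.96 did not pass (edgeR adjusted p = 0.509).

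Dram1, a p53 target of the lysosome membrane linked to autophagy, had a difference of −3.02 ± 0.74 (SE; edgeR adjusted p = 0.486). It had 615 counts on its own strand over the 10 libraries against 18085 on the opposite strand, and with unstranded counts the difference was 0.19. Nlrc3, an inhibitory NOD-like receptor, had 0 counts in CD11b KO against 53 in CD11b WT. That is 10.4-fold lower when a group total of 3 counts is taken as the floor in place of 0. Such a fold leaves out the counting error of the other group and the spread between libraries. At the label CD8 its level of 7.40 CPM in CD8 KO 2 stood apart from 0.659 CPM in CD8 KO 1 and from 0.0905 to 1.62 CPM in CD8 WT.

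No positive difference was called, and the nearest were the predicted gene Gm36723, at 2.77, and Ceacam16 (edgeR adjusted p = 0.059 for each). Ceacam16 encodes a member of the carcinoembryonic antigen family of adhesion molecules, best known from the inner ear. Ceacam16 had 3.33 and 2.67 CPM in CD11b KO, 0.683, 0.151 and 0.930 CPM in CD11b WT, 16.0 and 14.6 CPM in CD8 KO, and 24.3, 26.2 and 20.6 CPM in CD8 WT. KO lay above WT at the label CD11b and below WT at the label CD8, and neither pair of groups overlapped. The log2 fold change was 2.36 ± 0.45 (SE) at the label CD11b (edgeR adjusted p = 0.0266) and −0.63 ± 0.34 at the label CD8 (0.805), and the difference was 2.99 ± 0.57 (0.059). It passed in 5 of 22 settings, and Gm36723 passed in 6, DESeq2 among them for each. Plekhh2 was not called in the main setting and passed in 2 others. Its difference was 2.67 without the filter on low counts (edgeR adjusted p = 2.00e-42). Adjusted p-values of that fit cannot be set beside those of the main setting. For Gbp2 the edgeR adjusted p was 3.02e-25 there at an SE of 0.25, against 2.73e-05 at an SE of 0.29 in the main setting. With the replicate block of genotype and number the difference of Plekhh2 was 2.47 (edgeR adjusted p = 3.60e-10).

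Nrg2, which encodes the growth factor neuregulin 2, had 22.6 and 34.7 CPM in CD11b KO, 22.2, 19.5 and 16.4 CPM in CD11b WT, 1.40 and 2.18 CPM in CD8 KO, and 5.94, 4.16 and 6.34 CPM in CD8 WT. KO was above WT at the label CD11b by a margin of under 1 CPM between the nearest libraries, and below WT at the label CD8. The difference was 2.17 ± 0.46 (SE; edgeR adjusted p = 0.165) and passed in 3 of 22 settings, DESeq2 among them. Fkbp15, a regulator of endosome transport on actin, had 565 and 684 CPM in CD11b KO, 466, 605 and 672 CPM in CD11b WT, 653 and 640 CPM in CD8 KO, and 1122, 1089 and 898 CPM in CD8 WT. It fell at the label CD8, with a log2 fold change of −0.68 ± 0.13 (edgeR adjusted p = 0.0189), and the groups overlapped at the label CD11b, where it was 0.10 ± 0.12. The difference of Fkbp15 was 0.79 ± 0.18 (0.253) and passed in 3 of 22 settings, DESeq2 among them.

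Pip4k2b, a phosphoinositide kinase, had 70.2 CPM in both CD11b KO libraries, 47.9 to 61.2 CPM in CD11b WT, 67.6 and 75.7 CPM in CD8 KO, and 84.9 to 98.2 CPM in CD8 WT, a difference of 0.76 ± 0.20 (SE; edgeR adjusted p = 0.608). The log2 ratio of the label CD11b over the label CD8 was −0.03 ± 0.15 in KO and −0.78 ± 0.12 in WT. Dbn1, the actin-binding protein drebrin, was the more abundant at the label CD11b in both genotypes, with 329 ± 2.66 CPM in CD11b KO, 304 ± 49.8 CPM in CD11b WT, 28.6 ± 0.294 CPM in CD8 KO and 44.5 ± 9.07 CPM in CD8 WT (SD; n = 2 for KO, n = 3 for WT). Its difference was 0.75 ± 0.20 (edgeR adjusted p = 0.726) and passed in 2 of 22 settings. Ighg3, an immunoglobulin heavy chain constant gene of plasma cells, rose at the label CD11b to 9.08 and 7.00 CPM in KO, against 0.380, 0.151 and 0.0930 CPM in WT. At the label CD8 it had 15.2 and 23.8 CPM in KO, against 15.2, 6.52 and 3.03 CPM in WT. The difference was 3.92 ± 0.83 (edgeR adjusted p = 0.167). It passed in 5 settings, among them DESeq2 (adjusted p = 0.0186), edgeR without the filter on low counts (6.75e-05) and edgeR without CD8 WT 3 (0.0204). The setting without immunoglobulin genes left Ighg3 out.

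The other positive genes by p were low. Tppp3, a microtubule-binding protein, had 1.51 and 2.00 CPM in CD11b KO and 0.0759 to 0.279 CPM in CD11b WT, with a difference of 3.84 ± 0.91 (SE; edgeR adjusted p = 0.445). Trem1, a receptor that amplifies inflammatory signals in myeloid cells, had 11 counts in CD11b KO against 0 in CD11b WT, at least 6.22-fold higher, and 7.82 and 11.4 CPM in CD8 KO against 9.50 to 16.7 CPM in CD8 WT. Nxpe5 had 10 counts in CD11b KO against 0 in CD11b WT, 5.66-fold higher with that floor. Serpine2, a protease inhibitor, had 0 counts in CD8 KO against 20 in CD8 WT, 5.10-fold lower with that floor. At the label CD11b, Serpine2 had 5.25 and 13.4 CPM in KO against 8.28 to 11.9 CPM in WT. These folds leave out the counting error of the observed counts, so smaller folds remain possible. For Trem1, 10 of the 11 counts were in CD11b KO 1. Its difference passed in 2 of 22 settings, unstranded counts among them (edgeR adjusted p = 0.00446).

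**Figure D4:**
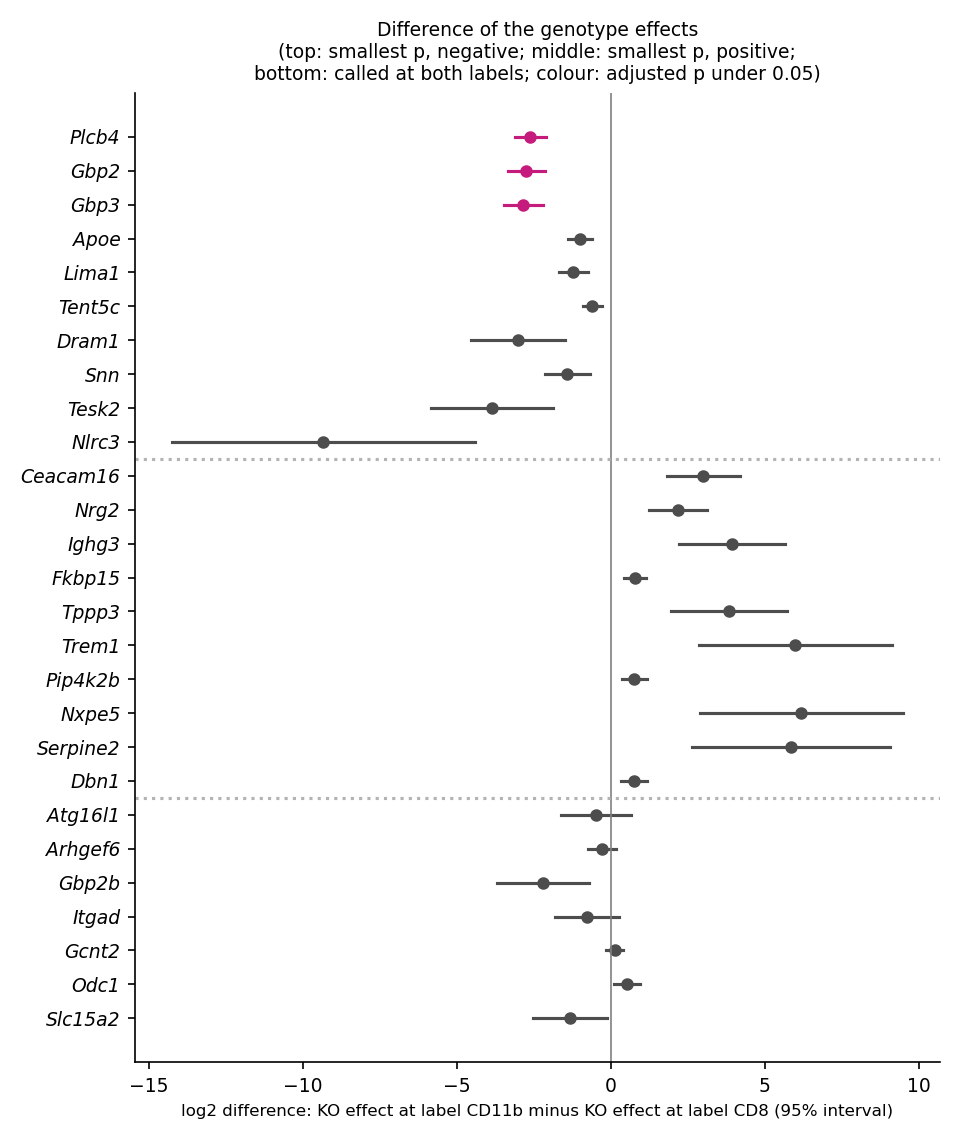
Difference of the KO effects with its 95% interval on the log2 scale for the 10 genes with the smallest p in the negative direction (top), the 10 in the positive direction (middle), and the genes called at both labels other than a predicted gene (bottom); colour marks an edgeR adjusted p under 0.05. The 3 coloured intervals run from −3.48 to −2.11, while the intervals of Atg16l1, Arhgef6, Itgad and Gcnt2 include 0; the fitted values of Nlrc3, Trem1, Nxpe5 and Serpine2, which have a group with 0 counts, are not bounds.

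A call at one label did not by itself show a difference. Of the 21 genes called at the label CD11b, 2 had a called difference, 20 had the same sign at the label CD8, and for 14 the 95% interval of the difference did not include 0. Of the 21 genes called at the label CD8, 1 had a called difference, 17 had the same sign at the label CD11b, and 14 had such an interval. Such an interval amounts to an unadjusted p under 0.05, where 3.04% of all genes tested were negative and 2.42% positive. The share of all genes with the same sign at both labels was not counted. The median size of the log2 fold change was 2.36 at the label CD11b for the genes called there, and 0.64 in the same direction at the label CD8. For the genes called at the label CD8, it was 0.77 in the same direction at the label CD11b, and 1.52 at the label CD8 itself. These genes were chosen by their change at their own label, so the larger value there is partly set by that choice and no test is given.

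Among the genes called at 1 label, Tnfsf9, whose product is 4-1BB ligand, a costimulator of T cells, fell at the label CD11b to 4.64 and 2.67 CPM in KO, against 12.1, 9.96 and 11.4 CPM in WT. The groups overlapped at the label CD8, with 26.3 and 22.7 CPM in KO, against 25.6, 22.4 and 32.1 CPM in WT. Its difference was −1.50 ± 0.39 (SE; edgeR adjusted p = 0.608). Cd300a, an inhibitory receptor for phosphatidylserine on dying cells, fell at the label CD11b, with a difference of −0.79 ± 0.23 (0.726). Il1r2, the decoy receptor for interleukin 1, and Ly86, the partner of the Toll-like receptor homologue RP105, fell there too, with differences of −0.44 ± 0.15 and −0.36 ± 0.19 (edgeR adjusted p = 0.83 and 0.933).

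Mmp9, which encodes gelatinase B, fell at the label CD8 to 3.95 and 3.83 CPM in KO, against 32.1, 25.4 and 19.4 CPM in WT. At the label CD11b it had 1 count in 1 KO library and 0 counts in WT, so no effect there could be compared with it. Gfod1 rose at the label CD8, with a difference of −0.56 ± 0.16 (SE; edgeR adjusted p = 0.726). Cyb5r4, a reductase of the endoplasmic reticulum, fell there, with a difference of 0.53 ± 0.25 (0.894).

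The 8 genes called at both labels had no called difference. Slc15a2, the peptide transporter PEPT2, had log2 fold changes of −7.83 and −6.51 at the labels CD11b and CD8, a difference of −1.33 ± 0.58 (SE; 95% interval −2.52 to −0.13). Its KO libraries held 0.505 and 0.167 CPM at the label CD11b and 0.659 and 1.65 CPM at the label CD8, levels at which a few counts set the difference, which ran from −2.23 (without CD11b KO 1) to −0.54 (without CD8 KO 2). Odc1, which makes putrescine in polyamine synthesis, fell by 1.00 and 1.52 on the log2 scale, a difference of 0.52 ± 0.20 (95% interval 0.10 to 0.94). On the linear scale the order was reversed, with KO minus WT at −79.8 CPM under the label CD11b and −37.7 CPM under the label CD8. Gcnt2, which branches glycan chains, had the narrowest interval of these genes, −0.16 to 0.40 around 0.12. Arhgef6, which activates the small GTPases Rac and Cdc42, had −0.27 ± 0.22 and Itgad, the integrin alpha D chain, −0.77 ± 0.50. For Atg16l1 the interval ran from −1.62 to 0.65.

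Across 42 gene lists with 761 entries tested, 2 lists held a called difference, the guanylate-binding proteins and the phospholipase C genes. Median differences were negative in 32 lists and positive in 10, against −0.02 over all genes tested. They were below −0.3 in 7 lists and above 0.3 in 2. Both lists above 0.3, the markers of NK cells and of neutrophils, had only 5 and 4 genes tested, and the NK cell median was −0.26 without CD11b KO 2. The lists share members and the same libraries, so these counts describe them and are no test. Over all genes tested, 51.6% of the differences were negative. At an unadjusted p under 0.05, 3.04% of all genes were negative and 2.42% positive, the shares to set beside the counts of each list.

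**Figure D5:**
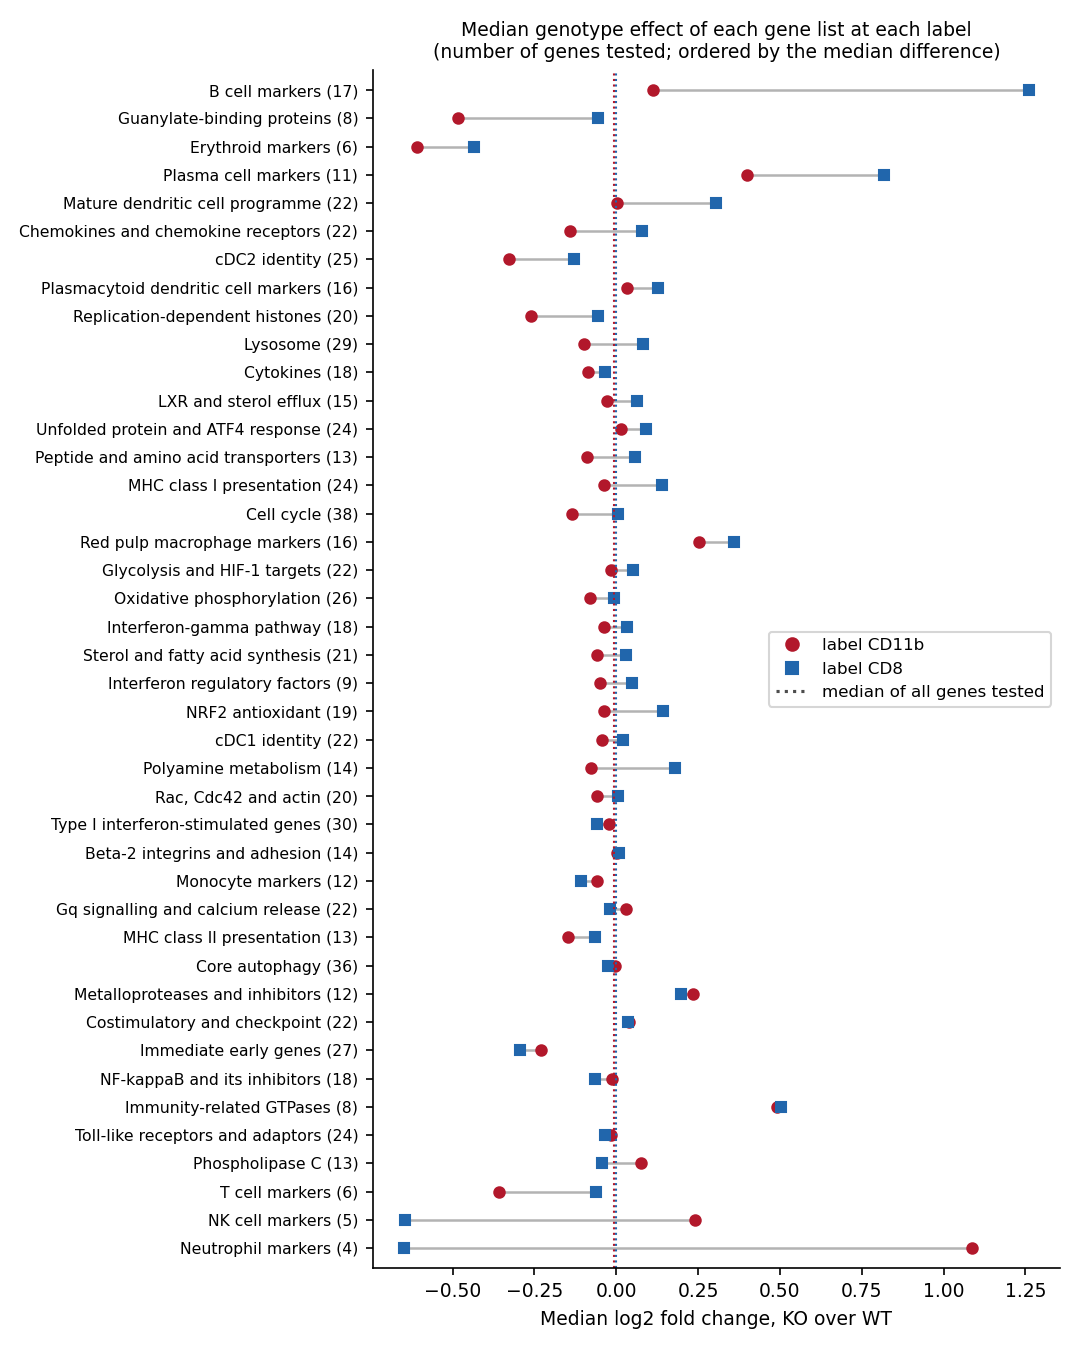
Median log2 fold change of KO over WT in each of the 42 gene lists at the label CD11b (circles) and the label CD8 (squares), ordered by the median difference, with the number of genes tested in brackets; dotted lines mark the medians over all genes tested. The B cell markers are furthest apart among lists with more than 10 genes, at 0.11 and 1.26, and most other lists of that size lie within 0.4 of 0 at both labels.

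Lysosome and MHC class I genes had mostly negative differences, small in size and none of them called. A negative lean was not particular to them, as 32 of the 42 lists had a negative median. Over all genes tested, 51.6% of differences were negative, and 3.04% were negative at an unadjusted p under 0.05. Of 29 lysosome genes, 0 differences were called by edgeR (6 negative and 0 positive at an unadjusted p under 0.05), 26 were negative and the median was −0.20. The cathepsin genes Ctsh and Ctsb and the protease gene Lgmn, which cut antigen in endosomes, had differences of −0.37 ± 0.15, −0.39 ± 0.16 and −0.39 ± 0.17 (SE; edgeR adjusted p = 0.866 for each). Mitf, a transcription factor of lysosome genes, had −1.24 ± 0.51. Of 24 genes of MHC class I presentation, 0 were called (2 negative at an unadjusted p under 0.05), 21 were negative and the median was −0.14. Psmb10, an immunoproteasome subunit, had −0.51 ± 0.23. Of 13 genes of MHC class II presentation, 0 were called (0 at an unadjusted p under 0.05), and their median was −0.02. Of 36 core autophagy genes, 0 differences were called (1 positive at an unadjusted p under 0.05), with 18 negative and a median of 0.00 when rounded.

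Of 22 genes of the mature dendritic cell programme, 0 differences were called (6 negative and 0 positive at an unadjusted p under 0.05), and the median was −0.39. Of all genes tested, 3.04% were negative and 2.42% positive at that threshold. The median effect of KO on this list was 0.00 at the label CD11b and 0.30 at the label CD8. Il12b, which encodes the p40 chain of interleukins 12 and 23, had 167 and 176 CPM in CD11b KO, 169, 242 and 197 CPM in CD11b WT, 41.5 and 47.9 CPM in CD8 KO, and 23.8, 38.8 and 24.4 CPM in CD8 WT. KO overlapped WT at the label CD11b and lay above WT at the label CD8, and the difference was −0.86 ± 0.25 (SE; edgeR adjusted p = 0.726). The difference of Il12b passed in 2 of 22 settings. Apol7c, Cd200 and Ccr7, the last a chemokine receptor that leads dendritic cells to T cell zones, had −0.69 ± 0.21, −1.07 ± 0.39 and −0.36 ± 0.16. The median of the list was −0.20 without CD11b WT 2 and −0.26 without CD8 WT 3.

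Of 22 chemokine and chemokine receptor genes, 0 differences were called (4 negative and 1 positive at an unadjusted p under 0.05), and the median was −0.37, or −0.13 without CD11b KO 1. Ccl4, a chemokine for T cells and monocytes, had −0.76 ± 0.26 and Cxcr4, the receptor of the stromal chemokine CXCL12, −0.39 ± 0.17 (SE; edgeR adjusted p = 0.848 and 0.866). Of 25 cDC2 genes, 0 were called (5 negative at an unadjusted p under 0.05, against 3.04% of all genes tested), and the median was −0.35. The ion channel gene Tmem176a had a difference of −0.82 ± 0.23 and the lectin gene Cd209a one of −1.14 ± 0.48, which was −1.70 without CD11b KO 1 and −0.69 without CD11b KO 2. These genes are low under the label CD11b: Tmem176a had 13.5 ± 0.752 CPM in CD11b KO, 22.2 ± 4.17 CPM in CD11b WT, 118 ± 17.1 CPM in CD8 KO and 109 ± 9.40 CPM in CD8 WT (SD; n = 2 for KO, n = 3 for WT). Of 22 cDC1 genes, 0 were called (1 negative and 1 positive at an unadjusted p under 0.05), and the median was −0.08.

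Of 15 LXR and sterol efflux genes, 0 differences were called (3 negative at an unadjusted p under 0.05), and the median was −0.17. Besides Apoe, these were Scd1, the fatty acid desaturase, at −1.17 ± 0.34, and Abcg1, a cholesterol exporter, at −0.50 ± 0.18 (SE; edgeR adjusted p = 0.726 and 0.859). Scd1 reached 138 CPM in CD8 KO 2 and stood at 48.5 to 91.6 CPM in the other libraries. Its difference was −0.39 without CD8 KO 2, and without CD8 KO 1 it was −1.68 and passed (edgeR adjusted p = 0.00975). Abcg1 ran from −0.70 to −0.26 over the same pair of settings. Of 27 immediate early genes, which respond to tissue digestion, 0 were called (1 positive at an unadjusted p under 0.05), with medians of −0.23 at the label CD11b and −0.29 at the label CD8 and a median difference of 0.02. Of 24 Toll-like receptor and adaptor genes, 0 were called (2 positive at an unadjusted p under 0.05). Ticam2, the adaptor TRAM of TLR4, had 1.88 ± 0.55 (edgeR adjusted p = 0.726), with 4.54 and 1.25 CPM in CD11b KO. Its difference was 0.71 without CD11b KO 1 and 2.56 without CD11b KO 2.

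B cell transcripts stood high in 1 library. Of 17 B cell markers tested, 0 differences were called and 6 were negative at an unadjusted p under 0.05, against 3.04% of all genes tested. Differences were negative for 16 of the 17, against 51.6% of all genes. The median of the markers was −1.03, with median KO effects of 0.11 at the label CD11b and 1.26 at the label CD8. Their summed level was 346 and 679 CPM in CD11b KO, 341 to 437 CPM in CD11b WT, 1128 and 3056 CPM in CD8 KO, and 647 to 1301 CPM in CD8 WT. CD8 KO 2 stood above every other library, and CD8 KO 1 lay within the range of CD8 WT. Cd79a, a chain of the B cell receptor complex, had 8.15 CPM in CD8 KO 1 and 43.7 CPM in CD8 KO 2, against 8.41 ± 4.10 CPM in CD8 WT (SD, n = 3). Without CD8 KO 2 the median of the B cell markers was 0.11. The differences of Gbp2, Gbp3 and Plcb4 without CD8 KO 2 were −2.35, −2.69 and −2.62, and all remained called, as the only 3 genes called without that library. The part of B cells in the values of other genes was not tested.

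Markers of other cells were near 0 for some types and not for others. S100a8, a neutrophil gene, had 0 counts in 9 of 10 libraries, and Cd3e, Cd3d and Cd3g of T cells had at most 2.42 CPM in any library. Ncr1 and Klrb1c of NK cells had at most 0.905 CPM. The whole T cell list nevertheless summed to 26.4 and 28.0 CPM in CD11b KO, 20.3 to 34.6 CPM in CD11b WT, 74.2 and 83.1 CPM in CD8 KO, and 88.0 to 93.6 CPM in CD8 WT. The NK cell list summed to 52.6 and 64.2 CPM in CD11b KO, 61.3 to 62.2 CPM in CD11b WT, 121 and 151 CPM in CD8 KO, and 152 to 167 CPM in CD8 WT, so at the label CD8 both lists were lower in KO without overlap. Siglech, a defining gene of plasmacytoid dendritic cells, had 23.2 and 24.0 CPM in CD11b KO, 13.1 to 33.6 CPM in CD11b WT, 0.576 and 1.13 CPM in CD8 KO, and 1.08 to 2.37 CPM in CD8 WT. C1qa had 3.03 and 3.42 CPM in CD11b KO, 2.14 to 5.54 CPM in CD11b WT, 32.8 and 39.0 CPM in CD8 KO, and 14.8 to 21.9 CPM in CD8 WT. C1qa was thus higher in KO at the label CD8 without overlap, as were C1qb and C1qc, and Siglech overlapped at both labels. The macrophage genes Spic, Cd5l and Cd163 overlapped at the label CD8. Cd5l, for example, had 20.9 and 30.1 CPM in CD8 KO, against 13.1 to 24.7 CPM in CD8 WT. The part of these cells in the differences was not tested. The 14 neutrophil markers, of which 4 passed the filter, summed to 3.33 and 4.58 CPM in CD11b KO, 1.74 to 3.72 CPM in CD11b WT, 24.1 and 24.9 CPM in CD8 KO, and 39.7 to 49.1 CPM in CD8 WT. Mmp9 is on that list and by itself had 3.95 and 3.83 CPM in CD8 KO, against 19.4 to 32.1 CPM in CD8 WT. The lower sum in CD8 KO is thus that of Mmp9 and not of the list as a whole. S100a9, Ly6g and Camp had at most 0.610 CPM in any library.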

How the data were processed

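RNA was sequenced from 10 libraries with a stranded total-RNA kit for very small inputs, per the labels' protocols. Alignment to GRCm38 used STAR 2.5.0a, per the submitters' processing notes, and the annotation release is not given in the sources used here. The authors deposited raw read counts per gene for 53379 genes in each library, without normalization, in 3 columns (unstranded and either strand). The counts of the last column were used, since it held the reads of the sense strand. The 4 summary lines of each file (unmapped, multimapping, no feature, ambiguous) stayed out of library sizes: multimapping reads made up 21.7 to 25.5% and reads in no feature 33.1 to 41.4%, and genes with close copies lose reads to the first of these.

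Gene names and positions came from GENCODE vM21 (GRCm38), which held 53274 of the 53379 gene IDs. Counts were filtered with edgeR's filterByExpr (14528 genes left), scaled by TMM and fitted with edgeR's quasi-likelihood model (edgeR 4.0.16, R 4.3.3) with 4 group means over all 10 libraries and 6 residual degrees of freedom. P-values were adjusted by Benjamini-Hochberg over all genes tested and are two-sided. The difference is the contrast of the KO effect at the label CD11b minus that at the label CD8, its SE is the size of the log2 value over the square root of F, and intervals are 95%. The CPM values are counts scaled to the library size times its TMM factor. No 2 libraries held identical counts. With 2 KO and 3 WT libraries per label, p-values rest on the spread between these few libraries. That spread was moderated by the spread of other genes, with 16.1 prior degrees of freedom. The fit took the 10 libraries as independent, although whether both labels share mice is not given.

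The genes named were drawn from the 10 with the smallest p of the difference in each direction, the genes called at a label (both with a mean of at least 1 CPM and no predicted-gene symbol), the Gbp and phospholipase C families, and the 4 genes of each list with the smallest p. Single cell-type markers were added beside them. The members and lists were chosen with earlier results of these data known. The alternatives were RLE size factors, no filter, a filter of 1 CPM in 3 libraries, unstranded counts, gene classes left out, DESeq2 1.42.0, limma-voom (limma 3.58.1), replicate blocks, and libraries left out. The fits were tested on simulated counts. Promoters came from RefSeq (GRCm38.p6), and figures were drawn with matplotlib 3.10.9.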

Additional observations from a re-analysis of the deposited data

Results flagged for a closer look

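For 3 genes the change with KO differed between the labels by a test of the difference itself, the interaction term of edgeR's quasi-likelihood fit with Benjamini-Hochberg adjustment over all genes tested. Plcb4 had a difference of −2.62 (adjusted p = 4.72e-06), Gbp2 one of −2.74 (2.73e-05) and Gbp3 one of −2.84 (2.73e-05). KO and WT libraries did not overlap at either label for Plcb4 and Gbp3, and for Gbp2 they overlapped at the label CD8. No group had the 4 libraries that a search for single outlying samples needs.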

How the results depend on the processing

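Gbp2, Gbp3 and Plcb4 were called in all 22 settings, main setting included, with differences of −3.05 to −2.35, −3.21 to −2.57 and −2.78 to −2.40. The number of called differences, 3 in the main setting, was 41 without the filter on low counts, 6 with unstranded counts, 5 without immunoglobulin genes, 12 with DESeq2, 4 with limma-voom and 3 to 8 with 1 library left out (8 without CD8 KO 1, 6 without CD8 WT 1, 5 without CD11b WT 1, CD11b WT 3 or CD8 WT 3). At the label CD11b, 21 calls became 71 without the filter, 42 with DESeq2, 14 to 29 with 1 library left out, and 13 without CD11b WT 1 and CD8 KO 2. For the label CD8, 21 became 142 without the filter, 59 with DESeq2, 63 with limma-voom, 78 in a fit of its own 5 libraries, and 7 (without CD8 KO 2) to 53 (without CD8 KO 1), with 32 without CD11b WT 1. A lone remaining KO library was assumed to vary like the other groups. The cause of these shifts was not tested.

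Same-numbered libraries of both labels correlated at 0.018 to 0.049 in their deviations over all genes tested. Over the 7548 genes at 10 CPM and over they correlated at 0.0965 to 0.153, and differently numbered ones at no more than −0.0234. Each library correlated best with its own number, a hint from the data and not from the design. Deviations were taken from group means, which pushes values between different numbers below 0. With 2 KO libraries per label, both KO numbers give a single value and its mirror image (0.141 and −0.141), so the hint is weak. Since not every value was over 0.1, the numbers were not taken to pair the libraries. A replicate block on the number gave 8 called differences, and a replicate block of genotype and number gave 28, among them Gbp2b (−2.18, edgeR adjusted p = 0.00902). With the block on the number, Plcb4 passed at the label CD11b (0.00519).

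Of the differences of single genes, 8 values changed sign. Dram1 was 0.19 with unstranded counts. Plcb1 was 0.58 with limma-voom, 3.99 without CD11b WT 1 and CD8 KO 2, and −1.44 to 4.09 with 1 library left out. Without both of those libraries, Atg16l1 was 0.0714 and Plcb2 −0.0152. With 1 library left out, Atg16l1 ran from −0.88 to 0.0450 and Plcb2 from −0.0384 to 0.40. Low counts limit most: genes under 1 CPM had a median half-width of 5.01.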
